A study of Mus musculus with 16 samples.

Results

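The genes described here are 10 genes of matrix breakdown: 6 matrix metalloproteinase genes (Mmp2, Mmp3, Mmp9, Mmp11, Mmp14 and Mmp15), 3 genes of their tissue inhibitors (Timp1, Timp2 and Timp3) and the heparanase gene Hpse. They were chosen by symbol, and all 10 were found among the 23224 genes of the estimated count table. They were followed through 16 polyA RNA libraries of pancreatic neuroendocrine tumours from RIP1Tag2 mice, in which the rat insulin promoter drives the SV40 T antigens in beta cells. Every tumour was taken at 14 to 16 weeks, described as end stage. The libraries comprised 4 from tumours of the C3HeB/Fe (C3H) background, 5 from tumours of the C57Bl/6 (B6) background given MK801, an NMDA receptor antagonist, at 1 mg/kg intraperitoneally once daily for 3 days, and 7 from B6 tumours that served as controls for both. The C3H and the B6 control mice were untreated or given saline, and the labels do not say which. Separate mice per library are not stated either, and a p-value here weighs a difference against the spread among these libraries alone, some of which may be technical.

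Library totals ran from 38561334 to 57013815 estimated counts. The tumour cell label was checked with 10 beta cell markers, which summed to 53250 to 113300 CPM in C3H controls, 30600 to 63290 CPM after MK801 and 15810 to 85080 CPM in B6 controls, with no marker at 0. Acinar markers, from neighbouring exocrine pancreas, summed to 24.3 to 15180 CPM in C3H controls, 294 to 8551 CPM after MK801 and 32 to 24260 CPM in B6 controls. B6 control replicate 1 stood far above the other B6 controls in Mmp2 and Mmp3.

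Matrix metalloproteinases are zinc-dependent endopeptidases that are made as inactive proenzymes and, once activated, cut collagens, laminins and other proteins of the extracellular matrix. Tissue inhibitors of metalloproteinases (Timps) bind their active sites, and one of them, Timp2, also takes part with Mmp14 at the cell surface in the activation of proMmp2. Heparanase is an endoglycosidase that cuts the heparan sulfate chains of basement membrane and cell surface proteoglycans. In RIP1Tag2 tumours, Mmp9 carried by infiltrating leukocytes is known for releasing VEGF from the matrix during the angiogenic switch, and heparanase has been studied for its part in invasion.

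Promoter letters are shown for Mmp3, Mmp14 and Timp1, since these 3 genes had lower averages after MK801 with an unadjusted p under 0.05 (values below) and the table of RefSeq promoters used here lists them. Each line gives the 250 bases before the start of the gene in RefSeq on GRCm38.p6, 5′ to 3′ on the plus strand, a later build than the mm9 named for the files. Capitals mark matches to any of 3 motifs searched on both strands: the AP-1 motif TGANTCA, the TATA motif TATAAA and the GC box GGGCGG, which reads CCGCCC on the other strand. The Mmp3 window lies at chr9:7445572-7445821, the Mmp14 window at chr14:54431348-54431597 and the Timp1 window at chrX:20869916-20870165.
Mmp3: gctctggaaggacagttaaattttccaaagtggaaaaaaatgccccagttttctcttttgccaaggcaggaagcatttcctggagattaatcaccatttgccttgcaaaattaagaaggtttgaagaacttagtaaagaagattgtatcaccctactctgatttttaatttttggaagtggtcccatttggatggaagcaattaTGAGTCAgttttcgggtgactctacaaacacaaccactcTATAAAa
Mmp14: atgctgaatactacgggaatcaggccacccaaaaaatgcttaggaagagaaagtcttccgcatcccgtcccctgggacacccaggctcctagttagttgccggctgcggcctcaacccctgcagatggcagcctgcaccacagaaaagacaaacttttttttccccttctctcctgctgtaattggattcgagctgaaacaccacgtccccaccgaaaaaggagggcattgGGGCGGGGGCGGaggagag
Timp1: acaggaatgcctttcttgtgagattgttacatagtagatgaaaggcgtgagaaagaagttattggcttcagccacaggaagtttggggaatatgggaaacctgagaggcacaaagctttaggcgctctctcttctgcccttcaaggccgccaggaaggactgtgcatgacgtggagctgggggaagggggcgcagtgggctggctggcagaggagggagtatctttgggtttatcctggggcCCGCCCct
The Mmp3 window held 1 AP-1 match, TGAGTCA, that began 46 bases before the start, and 1 TATA match that began 7 bases before it, and no GC box. The Mmp14 window held 2 adjoining GC boxes, and the Timp1 window held 1, with neither an AP-1 nor a TATA match in these windows. The promoter table used here, made from RefSeq, matched 8 of the 10 genes by symbol. Of those 8, 1 held an AP-1 match and 7 a GC box, against 6.75% and 32.7% of all 32851 mouse windows of the same length, and 12.4% of all windows held a TATA match. These matches describe letters and are not measured binding sites.

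Levels are given as CPM, estimated counts per 1e+06 counts of a library whose total was scaled by TMM. Per kilobase of the longest annotated transcript, Timp3, the inhibitor that stays bound to the matrix, was the most abundant of the 10 transcripts in all 3 groups, with 40.5 ± 17.5 CPM per kilobase in C3H controls (SD, n = 4), 36.5 ± 10.9 after MK801 (SD, n = 5) and 44.9 ± 25.3 in B6 controls (SD, n = 7). In B6 controls it was followed by Timp1 at 20.03 ± 11.4, Mmp2 at 16.8 ± 14.8 and Timp2 at 15.8 ± 5.71 CPM per kilobase, levels that did not differ beyond their spread. Mmp14 and Hpse came next, at 7.83 ± 2.74 and 6.80 ± 3.22 CPM per kilobase, again within their spread. Mmp3, Mmp11 and Mmp15 averaged 2.35, 1.44 and 1.39 CPM per kilobase, and their ranges overlapped. Mmp9 was last, at 0.0727 ± 0.0235 CPM per kilobase, below every value of the other 9 genes in B6 controls.

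**Figure D1:**
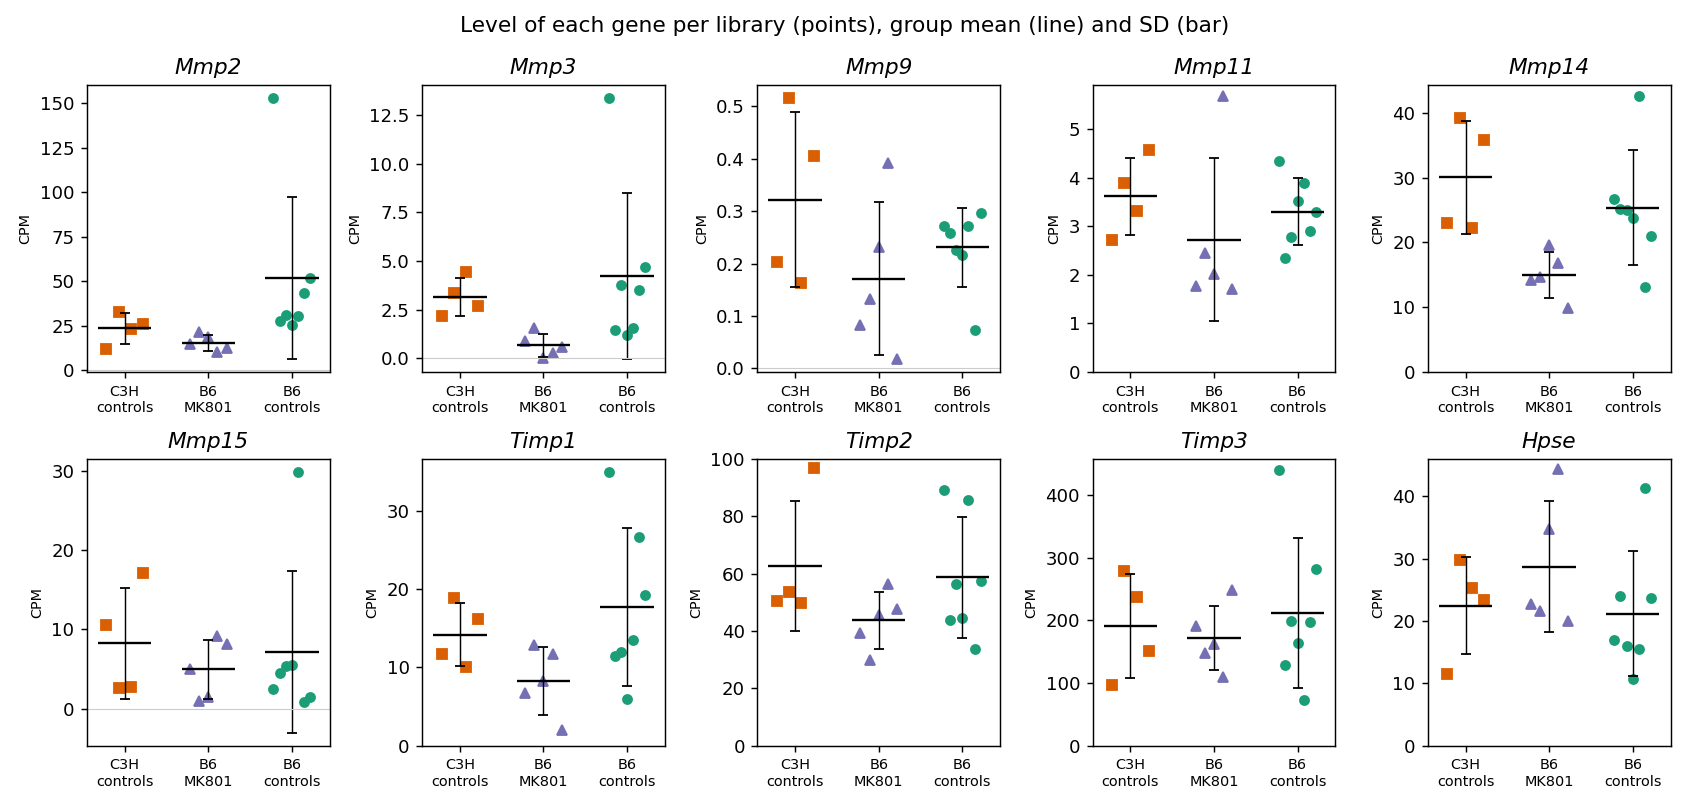
Level of each gene in CPM (vertical axes, linear) in every library of the 3 groups, with the group mean as a line and its SD as a bar. All 5 MK801 libraries sit below all 7 B6 controls for Mmp2 only, and 1 B6 control stands far above the rest at 153 CPM of Mmp2 and 13.4 CPM of Mmp3.

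Neither comparison placed any of the 10 genes past the threshold, a Benjamini-Hochberg adjusted p under 0.05 in edgeR's quasi-likelihood test over 16084 genes, which included all 10. In C3H against B6 controls 0 of 10 were called, where 2.4% of all genes tested were called (0.883% higher and 1.52% lower). Mmp2 was lower in C3H controls with an unadjusted p under 0.05, 1 of 10 where 8.93% of all genes were, and 0 of 10 were higher, where 4.91% of all genes were. Without B6 control replicate 1 this Mmp2 p was 0.0745 in edgeR (unadjusted) and 0 of 10 were lower, as was also so without C3H replicate 1 or 3. After MK801 0 of 10 were called, where 0.622% of all genes were called (0.149% higher and 0.473% lower). Mmp2, Mmp3, Mmp14 and Timp1 were lower after MK801 with an unadjusted p under 0.05, 4 of 10 where 8.5% of all genes were, and 0 of 10 were higher, where 3.5% of all genes were. Of these, Timp1 had an unadjusted p of 0.0281 in edgeR and one of 0.0707 without B6 control replicate 1, which left 3 of 10. When single libraries were left out, 3 to 5 of 10 were lower at an unadjusted p under 0.05, Mmp2, Mmp3 and Mmp14 each time. In these fits 0 of 10 were higher, except without B6 control replicate 6, where 1 of 10 was (Hpse). DESeq2 called 0 of 10 in the strain comparison, where it called 4.94% of all genes, and 2 of 10, Mmp2 and Mmp3, after MK801, where it called 3.99% of all genes. After MK801 9 of the 10 log2 fold changes were below 0, Hpse being the exception, with a median of -0.48 over the 10 against -0.03 over all genes, of which 53.7% were below 0. Between the strains 4 of 10 were below 0, with a median of 0.09 against -0.03 over all genes, of which 53% were below 0. Values that did not overlap between C3H and B6 controls were found for 0 of the 10 genes, where 2.37% of all genes were lower and 1.5% higher in that way. Values that did not overlap between MK801 and B6 control libraries were found for Mmp2 alone, which was lower as 1.14% of all genes were, while 0.274% of all genes were higher in that way. The comparisons share the 7 B6 controls, so their values are not independent. In bulk tumours fewer cells of a type and less RNA per cell cannot be told apart, which holds for every level given here.

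**Figure D2:**
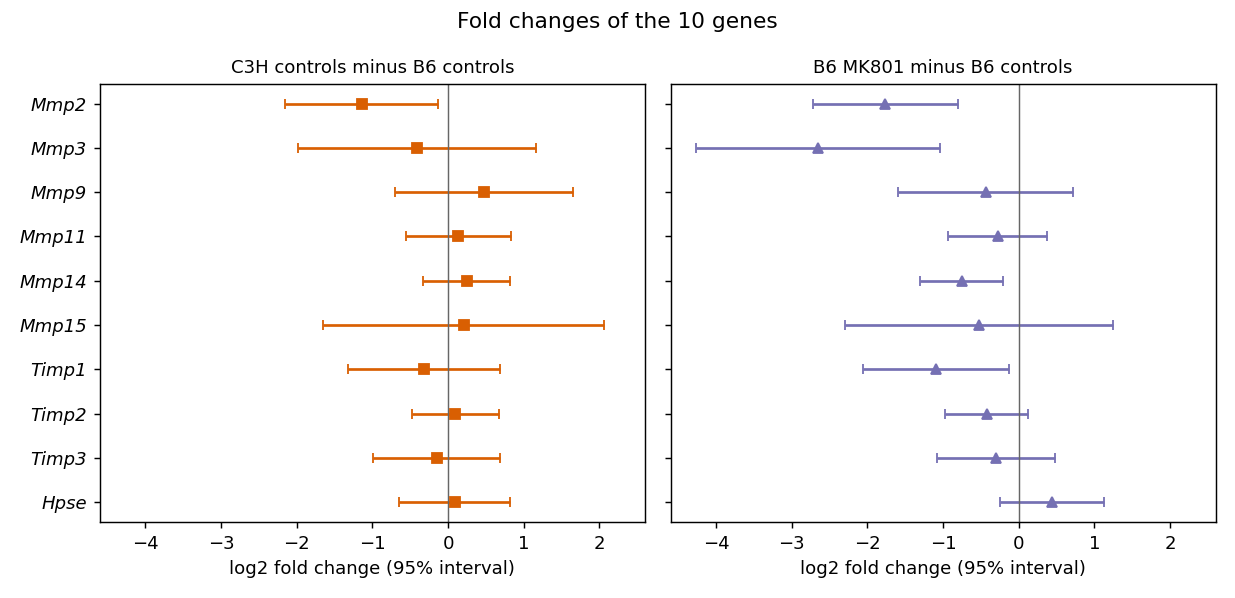
Log2 fold change (horizontal axes) with its 95% interval for the 10 genes in C3H controls minus B6 controls (left) and B6 MK801 minus B6 controls (right). The MK801 intervals of Mmp2, Mmp3, Mmp14 and Timp1 lie below 0, as does the strain interval of Mmp2, and no gene passed the adjusted threshold in either panel.

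Mmp2, gelatinase A, cuts denatured collagen and the type IV collagen of basement membranes. Its level was 12.01, 32.9, 23.1 and 26.1 CPM in C3H controls and 14.4, 21.4, 18.5, 9.93 and 12.2 CPM after MK801. In the 7 B6 controls it was lowest at 25.6, with a median of 31.2 and a highest value of 153 CPM. Every MK801 library was below every B6 control, while 2 of the 4 C3H libraries were below the lowest B6 control. The log2 fold change after MK801 was -1.76 (standard error 0.45, 95% interval -2.72 to -0.81, edgeR adjusted p = 0.0888). In C3H controls against B6 controls it was -1.14 (standard error 0.48, interval -2.15 to -0.13, edgeR adjusted p = 0.288). B6 control replicate 1 alone held the 153 CPM, and without it the log2 fold change was -1.19 after MK801 (edgeR adjusted p = 0.0920) and -0.57 between the strains (edgeR adjusted p = 0.471). The MK801 difference passed the threshold with DESeq2 (adjusted p = 0.00377) and in edgeR with the base composition trend of the libraries as a covariate (adjusted p = 0.0220).

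Mmp9, gelatinase B, was at the edge of detection. Its estimated counts were 8, 23, 7 and 21 in C3H controls, 4, 6, 9, 18 and 1 after MK801, and 3 to 13 in B6 controls. The groups overlapped, and the 2 highest C3H libraries, at 0.516 and 0.406 CPM, were above the highest B6 control at 0.297 CPM. The log2 fold changes were 0.48 between the strains (interval -0.70 to 1.66, edgeR adjusted p = 0.751) and -0.44 after MK801 (interval -1.59 to 0.71, edgeR adjusted p = 0.877). Neither difference passed the threshold, and both intervals hold 0.

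Mmp3, stromelysin 1, cuts proteoglycans and laminin and can activate other proMmps. Its level was 2.18, 3.37, 4.44 and 2.71 CPM in C3H controls and 0.881, 1.55, 0.0258, 0.306 and 0.579 CPM after MK801. In B6 controls Mmp3 ran from 1.21 through a median of 3.50 to 13.4 CPM. After MK801 4 of 5 libraries were below the lowest B6 control, and MK801 replicate 3 held a single estimated count. The log2 fold change after MK801 was -2.65 (standard error 0.76, interval -4.27 to -1.04, edgeR adjusted p = 0.116), the most negative of the 10. Without B6 control replicate 1, the library at 13.4 CPM, it was -2.01 (edgeR adjusted p = 0.210). DESeq2 gave an adjusted p of 0.00511 for it, and edgeR with the base composition covariate one of 0.0487. Between the strains the log2 fold change was -0.41 (interval -1.98 to 1.16, edgeR adjusted p = 0.841), and it was 0.23 without B6 control replicate 1.

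Mmp11, stromelysin 3, is activated inside the cell by furin-like enzymes and is usually a product of fibroblasts beside tumours. It stood at 2.71, 3.88, 3.32 and 4.57 CPM in C3H controls and at 1.76, 2.45, 2.02, 5.68 and 1.70 CPM after MK801. In B6 controls Mmp11 ran from 2.35 through a median of 3.29 to 4.35 CPM. After MK801 3 of 5 libraries were below all B6 controls and 1 was above them. The log2 fold changes were 0.13 between the strains (interval -0.56 to 0.83, edgeR adjusted p = 0.887) and -0.28 after MK801 (interval -0.93 to 0.38, edgeR adjusted p = 0.850). Without MK801 replicate 4 the MK801 value was -0.79 (edgeR adjusted p = 0.215).

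Mmp14, the membrane-bound collagenase MT1-MMP, acts at the surface of invading cells. Its level was 23.0, 39.2, 22.2 and 35.8 CPM in C3H controls and 14.2, 14.6, 19.6, 16.8 and 9.89 CPM after MK801. In B6 controls Mmp14 ran from 13.2 through a median of 25.0 to 42.7 CPM. All 5 MK801 libraries were below the B6 median, and only 1 was below the lowest B6 control. The log2 fold change after MK801 was -0.76 (standard error 0.26, interval -1.31 to -0.21, edgeR adjusted p = 0.209), and between the strains it was 0.24 (interval -0.33 to 0.82, edgeR adjusted p = 0.738).

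Mmp15, the related membrane-type enzyme MT2-MMP, varied more within groups than any of the others in B6 and C3H controls. It stood at 10.6, 2.54, 2.74 and 17.1 CPM in C3H controls and at 4.98, 1.02, 1.498, 9.15 and 8.19 CPM after MK801. B6 controls ran from 0.813 through a median of 4.46 to 29.9 CPM. The intervals were correspondingly wide, with log2 fold changes of 0.21 between the strains (interval -1.65 to 2.06, edgeR adjusted p = 0.936) and -0.52 after MK801 (interval -2.29 to 1.24, edgeR adjusted p = 0.918). The MK801 value was 0.57 without B6 control replicate 5, the library at 29.9 CPM, and the strain value was -0.43 without C3H replicate 4.

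Timp1, a secreted inhibitor that forms a complex with proMmp9, stood at 11.7, 18.9, 10.1 and 16.1 CPM in C3H controls and at 6.72, 12.8, 8.22, 11.7 and 1.95 CPM after MK801. The B6 control values of Timp1 lay at 5.94 CPM at the lowest, 13.5 CPM at the median and 35.0 CPM at the highest. All 5 MK801 libraries were below the B6 median, and the groups overlapped. The log2 fold change after MK801 was -1.10 (standard error 0.45, interval -2.06 to -0.13, edgeR adjusted p = 0.329), and without B6 control replicate 1 it was -0.84 (edgeR adjusted p = 0.510). The unadjusted p was also above 0.05 without B6 control replicate 6 or MK801 replicate 1 or 5. Between the strains the log2 fold change was -0.32 (interval -1.32 to 0.69, edgeR adjusted p = 0.806).

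Timp2, the partner of Mmp14 in proMmp2 activation, stood at 50.5, 53.6, 49.9 and 96.8 CPM in C3H controls and at 39.3, 29.8, 45.7, 56.4 and 47.7 CPM after MK801. In B6 controls Timp2 ran from 33.9 through a median of 56.4 to 89.2 CPM, and both groups overlapped with them. Its log2 fold changes were 0.09 between the strains (interval -0.48 to 0.67, edgeR adjusted p = 0.908) and -0.42 after MK801 (interval -0.97 to 0.12, edgeR adjusted p = 0.588). Timp3 stood at 96.6, 278.7, 237.8 and 151 CPM in C3H controls and at 192, 149, 162, 110.3 and 248 CPM after MK801. In B6 controls Timp3 ran from 72.7 through a median of 198 to 440 CPM. These ranges overlapped widely, with log2 fold changes of -0.15 between the strains (interval -0.99 to 0.69, edgeR adjusted p = 0.898) and -0.30 after MK801 (interval -1.09 to 0.48, edgeR adjusted p = 0.877). Without B6 control replicate 1 the MK801 value of Timp3 was -0.02 and the strain value 0.13.

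Hpse stood at 11.45, 29.8, 25.3 and 23.4 CPM in C3H controls and at 22.8, 21.6, 34.8, 44.3 and 20.1 CPM after MK801. In B6 controls Hpse ran from 10.8 through a median of 16.9 to 41.3 CPM. All 5 MK801 libraries were above the B6 median, the only gene of the 10 for which this was so, and 1 was above the highest B6 control. The log2 fold change after MK801 was 0.44 (standard error 0.32, interval -0.24 to 1.12, edgeR adjusted p = 0.695). Between the strains it was 0.09 (interval -0.65 to 0.82, edgeR adjusted p = 0.934). Without MK801 replicate 4, the library at 44.3 CPM, the MK801 value was 0.17. Over all single libraries left out it ran from 0.17 to 0.69. Without B6 control replicate 6, the library at 41.3 CPM, Hpse was higher after MK801 at an unadjusted edgeR p under 0.05. Within groups Hpse ran against the acinar markers (r = -0.751 over the 16 libraries), whose part in these values was not tested.

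Ratios of enzyme to inhibitor transcripts within a library are given without a test. The CPM ratio of Mmp2 to Timp2 was 0.238 to 0.614 in C3H controls, 0.176 to 0.718 after MK801 and 0.355 to 1.72 in B6 controls, with medians of 0.366, 0.367 and 0.626. The ratio of Mmp14 to Timp2 was 0.369 to 0.730 in C3H controls, 0.207 to 0.490 after MK801 and 0.2998 to 0.5699 in B6 controls, and that of Mmp9 to Timp1 was at most 0.0366 in any library. All 3 ratios overlapped between the groups.

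The 10 fibroblast markers were Col1a1, Col1a2, Col3a1, Pdgfra, Dcn, Lum, Fap, Pdpn, Fbln1 and Thy1. Their summed level was 414 to 1052 CPM in C3H controls, 115 to 373 CPM after MK801 and 379 to 922 CPM in B6 controls. The MK801 and B6 control ranges did not overlap. After MK801 9 of the 10 markers were lower with an unadjusted p under 0.05, where 8.5% of all genes were. The log2 fold change of the remaining marker was not below 0. Of the 10, 0 passed the adjusted threshold in edgeR and 5 did in DESeq2, which called 3.99% of all genes. The median log2 fold change of the markers was -1.41, against -0.03 over all genes. Between the strains 0 of 10 passed in either tool, and 0 had an unadjusted p under 0.05. The most negative marker values were -2.04 for Pdpn and -1.99 for Dcn, beside -1.76 for Mmp2, -2.65 for Mmp3, -0.76 for Mmp14 and -1.10 for Timp1. Within groups, over the 16 libraries, the fibroblast sum went with Mmp9 (r = 0.704), Timp1 (r = 0.695), Mmp11 (r = 0.690), Timp2 (r = 0.679) and Mmp14 (r = 0.586). It went less closely with Mmp2 (r = 0.416, or 0.230 without B6 control replicate 1) and hardly with Mmp3 (r = 0.1002, or -0.1002 without that library). The r of Mmp9 with the fibroblast sum rests on 1 to 23 estimated counts per library. No fibroblast marker was at 0 in any group. B6 control replicate 1, the B6 control with the highest Mmp2, Mmp3, Timp1, Timp2 and Timp3, also had the highest fibroblast sum of the B6 controls, at 922 CPM, and the lowest sum of 10 beta cell markers, at 15810 CPM against 51330 to 85080 CPM in the other B6 controls. The part of fibroblast content in these results was not tested.

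**Figure D3:**
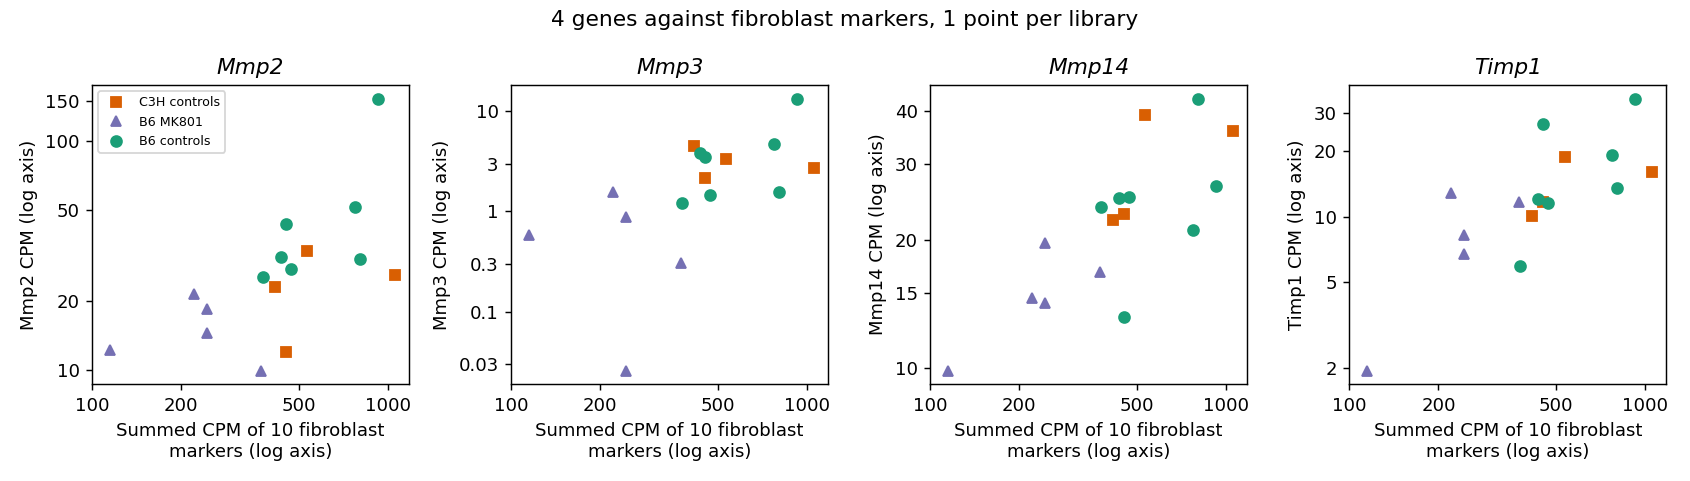
Mmp2, Mmp3, Mmp14 and Timp1 (vertical log axes, CPM) against the summed level of 10 fibroblast markers (horizontal log axes, CPM), 1 point per library. The 5 MK801 libraries lie left of all B6 controls, at 115 to 373 CPM against 379 to 922 CPM, and all 5 lie below the B6 control median of each of the 4 genes.

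Leukocytes are a known source of Mmp9 and heparanase, and their markers were set beside the 10 genes. The summed macrophage markers were 657 to 845 CPM in C3H controls, 390 to 726 CPM after MK801 and 666 to 1112 CPM in B6 controls, with 9 of 10 lower after MK801 at an unadjusted p under 0.05, of which 0 passed the adjusted threshold in edgeR and 6 in DESeq2. The 9 lymphocyte markers summed to 5.54 to 11.2 CPM in C3H controls, 1.46 to 4.32 CPM after MK801 and 6.41 to 13.7 CPM in B6 controls, with 9 of 9 lower after MK801 at an unadjusted p under 0.05, of which 0 passed in edgeR and 6 in DESeq2. In C3H controls the B cell gene Cd79b was the 1 lymphocyte marker called, by both tools (log2 fold change -1.70, edgeR adjusted p = 0.0331). The neutrophil markers summed to 13.3 to 23.7 CPM in C3H controls, 11.7 to 17.2 CPM after MK801 and 11.7 to 17.8 CPM in B6 controls, mostly from Csf3r and Cxcr2. After MK801 the calprotectin genes S100a8 and S100a9 had log2 fold changes of -1.34 and -1.88, with edgeR adjusted p-values of 0.255 for S100a8 and 0.140 for S100a9. Of 4 tested neutrophil markers 3 were lower after MK801 at an unadjusted p under 0.05, edgeR called 0 and DESeq2 called 1 (S100a9). Over all genes 8.5% were lower after MK801 at an unadjusted p under 0.05, edgeR called 0.622% and DESeq2 3.99%. Between the strains edgeR called 1.52% of all genes as lower. Elane, a granule gene of neutrophil precursors, was at 0 in all 16 libraries, and 5 of the 9 neutrophil markers in the table were below the expression filter. The mast cell markers summed to at most 1.53 CPM, and 0 of 7 passed the filter. Their sum nonetheless went with Mmp11 within groups (r = 0.809). MK801 replicate 4 held both the highest mast cell sum, 1.53 CPM, and the highest Mmp11, 5.68 CPM. The other MK801 libraries had mast cell sums of 0.0663 to 0.207 CPM. No r without MK801 replicate 4 is given. Within groups Mmp9, at 1 to 23 estimated counts per library, went with the neutrophil sum (r = 0.676). Its r was -0.301 with the macrophage sum and -0.0409 with the lymphocyte sum. For Hpse these values were 0.169 with neutrophil, -0.218 with macrophage and -0.259 with lymphocyte markers. The part of leukocyte content in these results was not tested.

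Markers of duct cells summed to 410 to 907 CPM in C3H controls, 305 to 1106 CPM after MK801 and 194 to 701 CPM in B6 controls, with no marker at 0. After MK801 4 of 8 were lower at an unadjusted p under 0.05 in edgeR and 5 of 8 in DESeq2, neither tool called any after adjustment, and the median log2 fold change was -1.11. Of all genes 8.5% were lower at that p in edgeR, and the median over all genes was -0.03. Within groups the duct sum ran against Timp1 (r = -0.792), Mmp11 (r = -0.687) and Mmp2 (r = -0.674, or -0.348 without B6 control replicate 1), and the mural cell sum ran against Mmp15 (r = -0.670). The mural cell sum went with Hpse (r = 0.580), Timp3 (r = 0.541, or 0.719 without B6 control replicate 1) and Mmp2 (r = 0.392, or 0.759 without that library). Timp3 also went with the sum of 9 endothelial markers (r = 0.363, or 0.630 without that library). After MK801 2 of 8 mural and 1 of 9 endothelial markers were lower at an unadjusted p under 0.05 in edgeR, where 8.5% of all genes were. Their median log2 fold changes were -0.44 and -0.49. EdgeR called 0 of either, where it called 0.622% of all genes. DESeq2 called 1 (Cldn5, endothelial), where it called 3.99%. The part of duct, mural and endothelial cells in these results was not tested.

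Base composition also moved with some of these genes. Each library was given a GC trend, a rank correlation over genes of the GC content of a transcript with the gene's log2 CPM minus its mean over all libraries. It ran from -0.21 to 0.46 in C3H controls, -0.29 to 0.17 after MK801 and -0.46 to 0.59 in B6 controls. After subtraction of the group means, Mmp15 followed it most closely of the 10 over the 16 libraries (r = 0.898) and Timp3 ran most strongly against it (r = -0.796), followed by Mmp2 (r = -0.632). B6 control replicate 5, with the highest GC trend at 0.59, had the highest Mmp15 and the lowest Timp3 of the B6 controls. The trend and the levels come from the same libraries, so these values are descriptions, and its part in the group differences beyond the covariate fits was not tested.

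**Figure D4:**
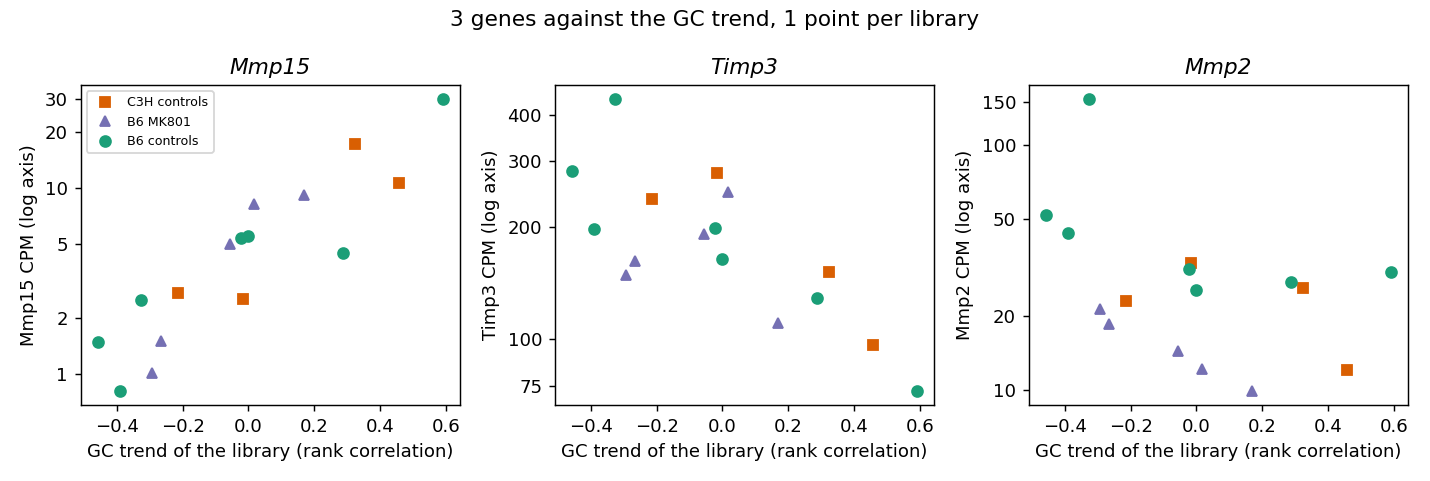
Mmp15, Timp3 and Mmp2 (vertical log axes, CPM) against the GC trend of each library (horizontal axes, rank correlation, no unit), 1 point per library. The B6 control with the highest trend, 0.59, holds the highest Mmp15, 29.9 CPM, and the lowest Timp3, 72.7 CPM. For Mmp2 every MK801 point lies below every B6 control point whatever the trend, so this panel cannot show the part of the trend.

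The 10 genes did not vary as a single block. In within-group deviations over the 16 libraries, Timp3 went with Mmp2 (Pearson r = 0.725, or 0.577 without B6 control replicate 1) and Mmp9 went with Mmp14 (r = 0.778). Mmp15 went with Timp2 (r = 0.612) and against Timp3 (r = -0.580). Among 12910 other genes that averaged at least 1 on the log2 CPM scale, the patterns most like Mmp14 were those of Fkbp10, a collagen-folding chaperone (r = 0.933), Col6a2, a chain of collagen VI (r = 0.932), and Heyl (r = 0.913). Those most like Mmp15 were Wasf1 (r = 0.966), Iqsec2 (r = 0.965) and Tmcc2 (r = 0.963). For Timp1 they were Serpinf1, Aldh1a2 and Itgam (r = 0.926 to 0.880), and for Mmp3 Lbp, Pi16 and Asrgl1 (r = 0.891 to 0.865). For Mmp2 they were Pmaip1, C1qtnf1 and Antxr2 (r = 0.924 to 0.919, or 0.830 to 0.798 without B6 control replicate 1). For Timp3 they were Ssh2, Rnf144b and Ifngr1 (r = 0.959 to 0.938). Hpse was most like Rhot1, Rhod and Dtna (r = 0.881 to 0.860), and Timp2 most like Tagln3, Cask and Gpr124 (r = 0.886 to 0.857). Mmp11 was most like Fam125b, Spast and Ppp2r5e (r = 0.854 to 0.840), and Mmp9 most like Adamts4, Tctn1 and Polr1b (r = 0.903 to 0.844). The r values of Mmp9 rest on 1 to 23 estimated counts per library. All points share their libraries, depth and GC trend, and no p is given.

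Elsewhere in the family, 1 of 13 tested genes among 19 other Mmp, Timp and heparanase genes was called in the MK801 comparison, where 0.622% of all genes were. In the strain comparison edgeR called 0 of 13, with 1 (Mmp16) at an unadjusted p under 0.05, which DESeq2 called. Over all genes edgeR called 2.4% between the strains and DESeq2 4.94%, and 8.93% were lower at that unadjusted p. Mmp23, an Mmp that lacks the hemopexin domain, fell after MK801, at 1.07, 1.503, 1.03, 1.44 and 1.14 CPM against a lowest value of 2.03, a median of 2.61 and a highest value of 4.87 CPM in B6 controls. The MK801 and B6 control values of Mmp23 did not overlap, and 1.14% of all genes were lower in that way. This rests on the same values as the call. The log2 fold change was -1.30 (standard error 0.26, edgeR adjusted p = 0.0363). Among 24 alternatives the call was kept in 12. Leaving out B6 control replicate 1, 3 or 7, or MK801 replicate 1, 2, 3 or 4, each ended it, the highest edgeR adjusted p among these being 0.109. In C3H controls Mmp23 stood at 2.62 ± 0.46 CPM (SD, n = 4), within the B6 range. The membrane-type gene Mmp16 was at -3.59 between the strains (edgeR adjusted p = 0.195) and at -2.94 after MK801 (edgeR adjusted p = 0.258) on the log2 scale, beside a B6 mean of 1.26 ± 1.66 CPM (SD, n = 7). Next by p between the strains came Mmp24 at 0.92 (edgeR adjusted p = 0.704) and Mmp25 at 0.68 (edgeR adjusted p = 0.707). The macrophage elastase gene Mmp12 and the collagenase gene Mmp13 stood at 13.2 and 7.22 CPM in C3H controls, 11.2 and 8.26 CPM after MK801 and 10.7 and 10.3 CPM in B6 controls and did not pass the test in either comparison. The Mmp13 mean after MK801 rests on 1 library at 28.2 CPM, the median there being 3.61 CPM. Of the 19 genes, 11 averaged under 1 CPM in every group, and Mmp1a and Mmp20 were at 0 in all 16 libraries.

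Of 23 tested genes that activate or restrain metalloproteinases, 1 rose in C3H controls, and edgeR called 0 after MK801, where 5 were lower at an unadjusted p under 0.05 and DESeq2 called 2 (Thbs2 and Plau). Over all genes edgeR called 0.883% as higher between the strains. After MK801 8.5% of all genes were lower at an unadjusted p under 0.05, and DESeq2 called 3.99%. The gene that rose was St14, which encodes matriptase, a membrane serine protease (log2 fold change 3.13, edgeR adjusted p = 0.0153). St14 stood at 101 CPM in C3H replicate 1, with a median of 13.7 and a lowest value of 10.35 CPM over the 4 C3H libraries, and at 0.912 to 6.70 CPM in B6 controls, and without C3H replicate 1 the edgeR adjusted p was 0.141. DESeq2 gave St14 no adjusted p. After MK801 the smallest p-values of this list were those of Thbs2, a thrombospondin that binds Mmp2, with a value of -1.92 (log2; edgeR adjusted p = 0.104), and of Plau, the urokinase gene, with -0.99 (edgeR adjusted p = 0.124). Serpine2, which encodes protease nexin, followed with -1.52 (edgeR adjusted p = 0.272). In the list of Adam and Adamts genes 1 of 17 fell in C3H controls, where 1.52% of all genes were called lower. It was Adamdec1 (edgeR adjusted p = 0.000156), at 0 to 3 estimated counts in C3H controls and 8.32 ± 3.97 CPM in B6 controls (SD, n = 7). After MK801 edgeR called 0 of 17. At an unadjusted p under 0.05, 4 were lower and 2 higher, where 8.5% of all genes were lower and 3.5% higher. DESeq2 called 2 after MK801 (Adam19 and Adamts5, both lower). The smallest p-values there were those of Adamts5, an aggrecanase, at -1.37 (edgeR adjusted p = 0.111), Adam19 at -1.003 (edgeR adjusted p = 0.149) and Adamts2 at -1.08 (edgeR adjusted p = 0.268).

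None of the 18 basement membrane genes was called by edgeR or DESeq2 in either comparison, with 1 higher between the strains and 3 lower and 1 higher after MK801 at an unadjusted p under 0.05 in edgeR. Over all genes 4.91% were higher between the strains at that p, and 8.5% were lower and 3.5% higher after MK801. The median log2 fold change of the 18 was 0.13 between the strains and -0.58 after MK801, against -0.03 over all genes in each. After MK801 15 of 18 were below 0, where 53.7% of all genes were. The smallest p in each comparison was that of the collagen IV chain gene Col4a4, which was higher, at 0.400 ± 0.286 CPM in C3H controls (SD, n = 4), 0.472 ± 0.163 CPM after MK801 (SD, n = 5) and 0.171 ± 0.066 CPM in B6 controls (SD, n = 7). Its log2 fold changes were 1.21 between the strains (edgeR adjusted p = 0.227) and 1.45 after MK801 (edgeR adjusted p = 0.132). Next between the strains came Agrn at 0.87 and Nid2 at 0.51 (edgeR adjusted p of 0.435 for Agrn and 0.592 for Nid2). Next after MK801 came Lama4, a laminin chain of vessel basement membranes, at -0.80 (edgeR adjusted p = 0.310), and Lamb2, another laminin chain, at -1.004 (edgeR adjusted p = 0.330). Of 23 tested genes for heparan sulfate, the substrate of heparanase, 1 fell in C3H controls, where 1.52% of all genes were called lower. Neither edgeR nor DESeq2 called any of the 23 after MK801. There 1 was lower and 2 were higher at an unadjusted p under 0.05. The median log2 fold change over the 23 was 0.03 in each comparison. The smallest p-values after MK801 were those of Ndst4 at -1.82 (edgeR adjusted p = 0.289), Hs6st2 at 1.42 (edgeR adjusted p = 0.340) and the syndecan gene Sdc1 at 0.70 (edgeR adjusted p = 0.384). The gene that fell was Ndst3, a heparan sulfate N-deacetylase and N-sulfotransferase, at 0.0673 to 0.164 CPM in C3H controls and 0.205 to 4.46 CPM in B6 controls (log2 fold change -3.48, edgeR adjusted p = 0.0248). Ndst3 lost the call whichever C3H library was left out. Among 16 tested genes of AP-1, NF-kB and the cytokines that induce metalloproteinases, 0 were called by edgeR in either comparison. At an unadjusted p under 0.05, 4 were lower after MK801, where 8.5% of all genes were, and 0 passed between the strains. DESeq2 called 2 after MK801 (Tnf and Il6), where it called 3.99% of all genes. Between the strains the smallest p-values were those of Jun at 0.88 (edgeR adjusted p = 0.447), Nfkb1 at 0.32 (edgeR adjusted p = 0.528) and Junb at 0.99 (edgeR adjusted p = 0.640). After MK801 they were those of Tnf and Il6, at -1.31 for Tnf (edgeR adjusted p = 0.0858) and -2.16 for Il6 (edgeR adjusted p = 0.104) on the log2 scale, beside B6 means of 1.13 CPM of Tnf and 0.476 CPM of Il6, followed by Stat3 at -0.43 (edgeR adjusted p = 0.394).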

How the data were processed

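PolyA RNA from 16 tumours was sequenced after Illumina TruSeq preparation, per the labels' protocols. RSEM 1.2.12, Bowtie 1.0.1 and mm9 appear in the submitters' processing notes without their roles. Strandedness, annotation and filters: not given in the sources used here. For 23224 genes the authors deposited estimated counts. The authors also deposited normalized values for 22484 genes, a signal equal to these counts divided by 1 factor per library, as the values show. Columns were matched to samples by title.

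Estimated counts were rounded and fitted with edgeR 4.0.16 in R 4.3.3: filterByExpr by group (16084 genes left), TMM, and a single quasi-likelihood fit (glmQLFit, glmQLFTest) of all 3 groups, with Benjamini-Hochberg adjustment over all genes and a threshold of 0.05. Standard errors are |log2 fold change| divided by sqrt(F), and intervals use the fit's total degrees of freedom. Log2 CPM used a prior count of 2. Library totals of 38561334 to 57013815 leave genes below about 1 CPM with wide errors. Lengths and GC contents are those of each symbol's longest transcript in GENCODE M21 (GRCm38), found for 98.5% of the genes tested. No pair of libraries within a group was as alike as sampling noise allows (lowest chi-square over its degrees of freedom, 122). The steps were tested on simulated data.

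The members and gene lists were chosen with earlier results of these data known. Named genes were all 10 members, and from each pathway list the genes past the threshold or, in a comparison with none, the 3 with the smallest p, and the 3 genes most like each member. Others named were chosen after their values were seen (Mmp12, Mmp13, Mmp16 after MK801 and single markers). Alternatives were DESeq2 1.42.0, upper-quartile factors, limma-voom and limma 3.58.1 on the log2 of the normalized values plus 1 or 0.1, other filters, 2-group fits, the replicate block, a GC trend covariate, a threshold of 0.01, and each library left out.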

Additional observations from a re-analysis of the deposited data

Results flagged for a closer look

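Among 30 gene-by-group sets of levels, 6 held a library whose gap to the nearest other library took up more of the group's range than Dixon's criterion allows at 95%. Chance gives about 1 in 20 for independent sets of normally distributed values. The CPM used were not on a log scale and the 30 sets share their libraries, so that rate may not hold here. In B6 controls, replicate 1 had 153 CPM of Mmp2 where the next library had 51.5 CPM, and 13.4 CPM of Mmp3 where the next had 4.71 CPM. B6 control replicate 6 had 0.0740 CPM of Mmp9, from 3 estimated counts, where the next lowest had 0.217 CPM, and B6 control replicate 5 had 29.9 CPM of Mmp15 where the next highest had 5.53 CPM. MK801 replicate 4 had 5.68 CPM of Mmp11 where the next had 2.45 CPM. C3H replicate 4 had 96.8 CPM of Timp2 where the next had 53.6 CPM.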

How the results depend on the processing

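After MK801, the sign of the log2 fold change held in all alternatives run for 9 of the 10 genes, Mmp15 being the exception, and between the strains it held for 4 of 10 (Mmp2, Mmp11, Mmp14 and Timp1). None of the 10 was called between the strains in any alternative. After MK801 the number called was 2 with DESeq2 and 2 with the GC trend covariate (Mmp2 and Mmp3 in each), 1 with this covariate and the replicate block (Mmp2), and 0 in the other settings, with the range 0 to 0 when single libraries were left out. DESeq2 called 3.99% of all genes, where edgeR without a covariate called 0.622%. The covariate fits, with and without the block, also called more of all genes than edgeR without a covariate (counts below). Signs that turned between the strains were those of Mmp3 with limma-voom (0.0119), the replicate block (0.0477), the GC trend covariate (0.21) and the covariate with the block (0.31), of Timp3 with the block (0.0329), the covariate (0.24) and the covariate with the block (0.27), of Mmp15 (-0.17) and Timp2 (-0.0047) with the covariate, and of Mmp9 with the covariate and block (-0.0598). After MK801 Mmp15 was at 0.0742 with the covariate. When single libraries were left out, log2 fold changes between the strains ran from -0.58 to 0.23 for Mmp3, -0.43 to 1.298 for Mmp15, -0.19 to 0.24 for Timp2, -0.39 to 0.13 for Timp3 and -0.0777 to 0.33 for Hpse, and after MK801 from -0.95 to 0.57 for Mmp15. The cause was not tested.

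The counts over all genes that serve as background moved more. Between the strains 386 genes were called, against 794 with DESeq2, 231 in a fit of the 2 groups, 162 with the replicate block, 198 with the GC trend covariate and the block, 153 at a threshold of 0.01, and 207 to 473 when single libraries were left out (212, 207 and 245 without C3H replicates 2, 3 and 4). After MK801 100 were called, against 641 with DESeq2, 181 and 167 with limma on the normalized values plus 1 and plus 0.1, 64 without a low-count filter, 10 in a fit of the 2 groups, 1 with the replicate block, 388 with the covariate, 225 with the covariate and the block, and 8 at a threshold of 0.01. The settings that called Mmp2 or Mmp3 were thus ones that called more of all genes: 641 with DESeq2, 388 with the covariate and 225 with the covariate and the block. Without single libraries the MK801 count ran from 4 to 202, with 48, 46 and 28 without B6 control replicates 1, 3 and 7 and 8, 16, 4 and 202 without MK801 replicates 2, 3, 4 and 5. The replicate numbers share no stated source: of 9 same-numbered pairs 1 correlated above 0.1, and 0 of 9 libraries correlated best with the B6 control of their own number. With the replicate block, edgeR's adjusted p was 0.156 for Mmp23 after MK801 and 0.161 for St14 between the strains. Mmp9, at 1 to 23 estimated counts, was below the stricter filter of 1 CPM in 4 libraries and had no value there.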
